A study of Mus musculus with 9 samples.

Results

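The endothelial genes of the mouse lung were followed as 36 genes, all 36 found by gene symbol among the 18875 genes of the deposited table. They are pan-endothelial, capillary and vessel genes, chosen by symbol for where they are known to be expressed. The 9 mRNA sequencing libraries, 3 for each of 3 groups, were made from whole lung of WT BALB/c mice, an inbred strain. Long-term mice received PM2.5, fine airborne particulate matter, at 10 mg/kg into the nose, 6 times with 3 days between instillations. Short-term mice received 1 instillation at the same dose. PBS mice are labelled as exposed to PBS for the long term, but no number or interval of PBS instillations was recorded for them here. Whether their schedule equals that of the long-term mice is therefore not known, and no PBS control matched to a single instillation is analysed here. The age and sex of the mice and the time to collection of the lungs are not given in the sources used here. As its subject, the series title gives lung fibrosis and injury after PM2.5 and the antioxidant role of Nrf2. Whether samples within a group are from separate mice is not stated in the labels, and p-values then measure only the spread between these samples, which may be technical.

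Endothelial cells line the blood vessels of the lung and form the vascular side of the barrier across which gas is exchanged. Their identity is kept by ETS factors (Erg, Fli1) and SOXF factors (Sox7, Sox17, Sox18). VEGF signals through Kdr and Flt1, and angiopoietins signal through Tek, and these pathways control survival, sprouting and the tightness of the vessel wall, which rests on junction proteins such as Cdh5 and Cldn5. The alveolar capillaries of the mouse hold 2 main kinds of cell, the aerocyte, marked by Car4, Ednrb and Apln, and the general capillary cell, marked by Gpihbp1, Plvap and Aplnr. In RNA of whole lung, fewer endothelial cells, less RNA per cell and more RNA from other cells cannot be told apart.

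All 36 genes were detected in every library, and all 36 passed the filter for testing. Levels are given in TPM, a share of all transcripts, which is scaled for transcript length but keeps no record of read number. Comparison between genes is limited by the library treatment given with the processing and, in the short-term libraries, by a remaining trend with length. In the PBS libraries the mean level ran from 13.4 TPM for Nos3 to 1529 TPM for Plvap, and 20 of the 36 genes exceeded 100 TPM, so the lungs carried the endothelial transcripts that the list names. Together the 36 genes made up 0.699%, 0.760% and 0.762% of all TPM in the long-term libraries, 0.769%, 0.809% and 0.898% in the short-term libraries, against 1.06%, 1.00% and 1.08% in PBS libraries. Every PM2.5 library lay below every PBS library in this sum. The short-term libraries stood apart in a way that touches every comparison with them. Their long transcripts were low relative to short ones: the median log2 level against PBS of the longest 20% of genes minus that of the shortest 20% was -1.37 in short-term replicate 1 and -0.61 and -0.84 in the other 2, against -0.18 to -0.11 in the long-term libraries. Fewer genes reached 1 TPM in them, at 12560, 13414 and 13175, against 13534 to 13930 in the other libraries. Results with the short-term group are therefore given both as deposited and after removal of the trend with transcript length and GC content from each library, called corrected below.

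Promoter sequences are shown because members include the ETS and SOXF factors themselves. All 36 genes had a lower mean in long-term PM2.5 than in PBS, and any part of promoter motifs in this was not tested. In short-term PM2.5 their differences ran from -2.11 (Sox7) to 0.29 (Gpihbp1). A table from RefSeq (GRCm38.p6) held a promoter for 18 of the 36 genes. The 250 bases before the start were searched on both strands for 3 motifs. The first ETS motif was CAGGAA. The other ETS motif was CCGGAA. The SOX motif was AACAAT. Of these, CAGGAA was found for 10 of the 18 genes (55.6%), against 27.0% of the 11132 tested genes with a promoter in the table, and CCGGAA for 2 (11.1%), against 23.6%. AACAAT was found for 4 of the 18 genes (22.2%), against 6.58%. Among genes with a single promoter in the table, Calcrl, Emcn and Tek held the most matches, 2 of CAGGAA and 1 of AACAAT each, and their 250 bases before the start are printed 5′ to 3′ on the gene's strand, with the matches in capitals (TTCCTG is the reverse complement of the first ETS motif, and ATTGTT is that of the SOX motif). The Calcrl promoter lies at chr2:84425267-84425516 on the minus strand, the Emcn promoter at chr3:137340828-137341077 and the Tek promoter at chr4:94739039-94739288, both on the plus strand.
Calcrl: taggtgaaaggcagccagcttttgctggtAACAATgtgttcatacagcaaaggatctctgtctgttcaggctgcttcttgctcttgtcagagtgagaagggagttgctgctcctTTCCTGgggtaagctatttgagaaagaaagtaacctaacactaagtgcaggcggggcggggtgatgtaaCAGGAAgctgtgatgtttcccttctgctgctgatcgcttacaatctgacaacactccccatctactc
Emcn: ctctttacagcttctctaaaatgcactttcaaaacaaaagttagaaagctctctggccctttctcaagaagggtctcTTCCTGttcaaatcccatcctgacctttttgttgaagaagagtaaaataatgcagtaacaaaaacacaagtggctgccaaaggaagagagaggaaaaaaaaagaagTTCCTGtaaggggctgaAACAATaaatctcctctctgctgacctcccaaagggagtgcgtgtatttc
Tek: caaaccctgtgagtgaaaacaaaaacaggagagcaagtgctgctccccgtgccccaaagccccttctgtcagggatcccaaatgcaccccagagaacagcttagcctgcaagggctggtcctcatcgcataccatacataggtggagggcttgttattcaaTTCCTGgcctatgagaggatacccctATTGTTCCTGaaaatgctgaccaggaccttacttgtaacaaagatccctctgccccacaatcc
In Calcrl the matches begin 221, 136 and 67 bases before the start, and in Emcn 173, 67 and 50 bases. In Tek they begin 89, 63 and 59 bases before the start, and the SOX match and the nearest ETS match share 2 bases. The start is the one listed with each promoter, and the annotated genes reach further upstream, to 84425405 in Calcrl, 137341062 in Emcn and 94739086 in Tek. All Tek matches and the Calcrl matches at 136 and 67 bases thus lie inside the annotated gene. Of 15 genes with a single promoter, 13 had the bases just after the start in a transcript of the gene. A match is a stretch of letters, and no binding was measured.

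**Figure D1:**
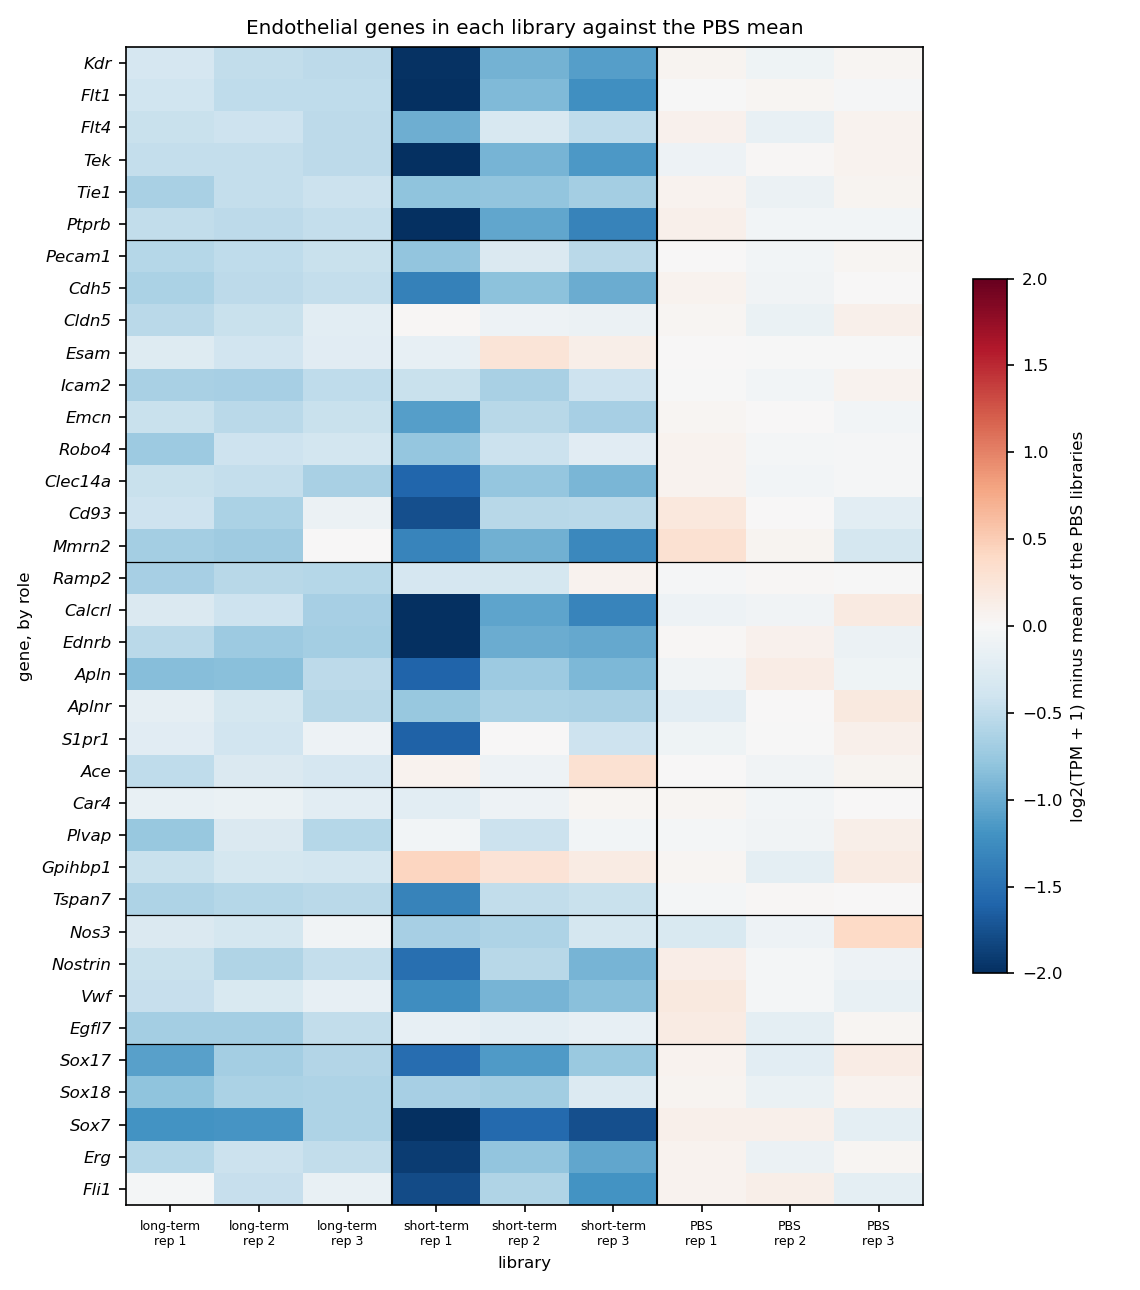
Level of each of the 36 endothelial genes (rows, by role) in each of the 9 libraries (columns), as log2(TPM + 1) minus the mean of the 3 PBS libraries. Colours stop at 2 in either direction. The long-term columns are like each other, with medians over the genes of -0.50, -0.48 and -0.49 and with 36, 36 and 35 genes below the PBS mean. The short-term columns are uneven, with medians of -1.28, -0.62 and -0.65.

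The comparison of long-term PM2.5 with PBS asks what repeated instillation left of the endothelial transcripts. All 36 genes had a lower mean level in the long-term libraries than in the PBS libraries, and the differences were even: the mean TPM was below the PBS mean by 10.7% (Car4) to 50.3% (Sox7), with a median of 29.3% and quartiles of 24.0% and 31.9%. Icam2, an adhesion molecule of the endothelial surface, Egfl7, a secreted regulator of vessel shape, and the transcription factor Sox18 had the smallest adjusted p-values. Differences are in log2(TPM + 1), PM2.5 minus PBS, a scale that understates the change of low genes, and their median over the 36 genes was -0.49, against 0.03 over all 13991 genes tested. Of all tested genes 45.7% had a lower mean, against 36 of the 36 endothelial genes. For 31 of the 36 genes every long-term library lay below every PBS library, which was so for 17.4% of all tested genes.

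In the fit over all 3 groups (limma, adjusted p under 0.05 over all tested genes), 9 of the 36 genes fell and 0 rose, where 1.72% of all tested genes fell and 9.51% rose. The 9 were Icam2, Egfl7, Sox18, Tie1, Ramp2, Cdh5, Pecam1, Sox17 and Plvap. This count depended on the short-term libraries, which enter the estimate of the spread: without short-term replicate 1 it was 28 (background 7.18%), and without short-term replicate 2 it was 17 (background 2.88%). With the long-term and PBS libraries fitted alone it was 28 (background 9.87%), and with the correction for length and GC content it was also 28 (background 11.6%), of which 26 were the same genes. Ace and Calcrl passed with the 2 groups alone but not with the correction, and Car4 and Aplnr with the correction only. Fli1, Mmrn2, Nos3, S1pr1, Cd93 and Vwf passed in none of these 3 fits. Leaving out PBS replicate 1, PBS replicate 3 or long-term replicate 1 gave counts of 4, 5 and 3 (background 0.422%, 0.572% and 0.350%), with 1 library fewer in the comparison itself. Icam2, Egfl7 and Sox18 passed in each of the 9 fits without 1 library. Ramp2 missed the threshold without long-term replicate 1 (adjusted p = 0.0605), and Tie1 without PBS replicate 1 (0.0621) or long-term replicate 1 (0.062). Cdh5, Pecam1 and Sox17 missed it without any 1 of the 6 long-term and PBS libraries, with adjusted p up to 0.111, 0.118 and 0.16. Plvap missed it without any 1 of the PBS libraries, long-term replicates 1 and 3 or short-term replicate 3, with adjusted p up to 0.201.

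**Figure D2:**
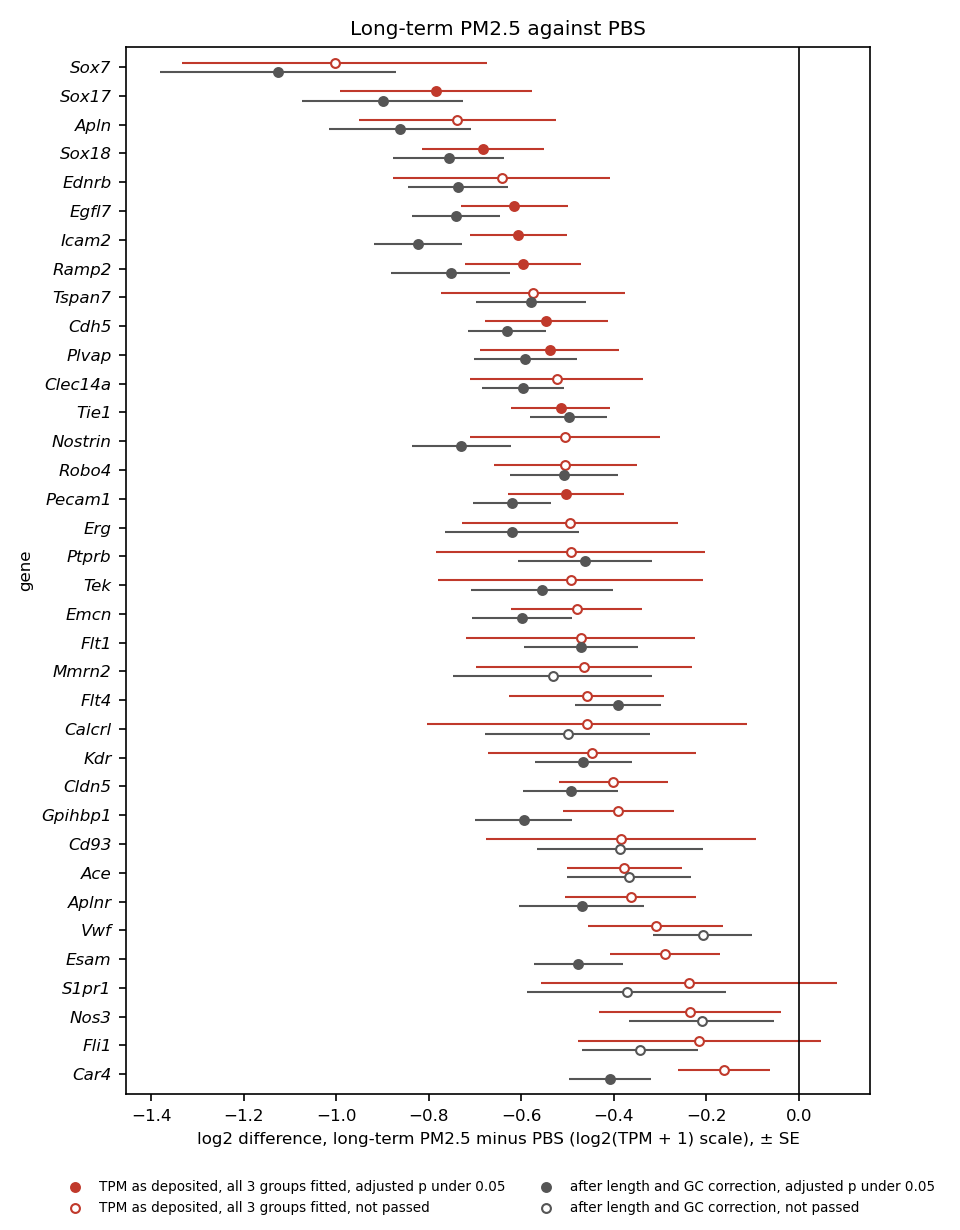
Difference of each endothelial gene between long-term PM2.5 and PBS in log2(TPM + 1), with its standard error from the fit over all 3 groups (n = 3 libraries each). Red is the fit to TPM as deposited and grey the fit after the length and GC correction, and filled points passed the threshold, 9 in red and 28 in grey. All 36 red points lie below 0, between -1.003 (Sox7) and -0.16 (Car4).

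Of the receptor tyrosine kinases and their phosphatase, 1 of 6 fell in the fit over all groups (background 1.72%). All 6 of 6 passed as lower both with the 2 groups alone (background 9.87%) and with the correction (background 11.6%). Tie1, an orphan partner of the angiopoietin receptor Tek, had 113, 127 and 132 TPM in long-term libraries, 101, 102 and 109.6 TPM in short-term libraries and 186, 162 and 183 TPM in PBS libraries. All 6 PM2.5 libraries lay below all PBS libraries, and Tie1 fell by 0.52 ± 0.11 (SE) on the log2 scale in the long-term group (adjusted p = 0.0106; 0.00093 to 0.0621 over the alternatives). Kdr, the main receptor for VEGF-A, had 114, 102 and 99.4 TPM in long-term libraries, 35.6, 74.4 and 66.8 TPM in short-term libraries and 149, 135 and 147 TPM in PBS libraries. Flt1, which binds VEGF-A and limits its access to Kdr, had 51.9, 48.1 and 48.4 TPM in long-term libraries, 15.2, 37.02 and 29.1 TPM in short-term libraries and 68.6, 70.7 and 67.7 TPM in PBS libraries. Tek, the receptor for angiopoietins, had 88.9, 89.2 and 86.8 TPM in long-term libraries, 24.1, 65.3 and 55.8 TPM in short-term libraries and 116, 127 and 131 TPM in PBS libraries. These 3 receptors were lowest in short-term replicate 1, intermediate in the long-term libraries and highest in the PBS libraries, with no overlap between any 2 groups. Ptprb, a phosphatase that acts on Tek and on Cdh5, had 74.2, 72.5 and 74.8 TPM in long-term libraries, 17.8, 50.5 and 40.6 TPM in short-term libraries and 112, 101 and 101 TPM in PBS libraries, and showed the same order. The long-term differences of Kdr, Flt1, Tek and Ptprb, at -0.45 ± 0.22, -0.47 ± 0.25, -0.49 ± 0.29 and -0.49 ± 0.29, missed the threshold in the fit over all groups (adjusted p = 0.288, 0.315, 0.379 and 0.39). Flt4, the receptor for VEGF-C, averaged 25.8 ± 1.05 TPM in the long-term libraries, 23.6 ± 5.44 TPM in the short-term libraries and 35.9 ± 3.11 TPM in the PBS libraries (SD, n = 3 each).

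Of the junction and surface proteins 3 of 10 fell in the long-term group (background 1.72%), Icam2, Cdh5 and Pecam1. With the 2 groups alone 8 of 10 passed as lower (background 9.87%). Icam2, a ligand for leukocyte integrins (chr11:106377656-106388139, GRCm38.p6), had 198, 197 and 219 TPM in long-term libraries, 228, 199 and 233 TPM in short-term libraries and 309.96, 299 and 327 TPM in PBS libraries. All PM2.5 libraries lay below all PBS libraries, and the long-term and short-term ranges overlapped. Icam2 fell by 0.61 ± 0.10 in the long-term group (adjusted p = 0.00396) and by 0.50 ± 0.10 in the short-term group (adjusted p = 0.00356), although the short-term fall missed the threshold under median-ratio scaling (adjusted p = 0.465; 0.000165 to 0.465 over the alternatives). Cdh5, VE-cadherin, the adhesion protein of endothelial junctions, had 365, 391 and 404 TPM in long-term libraries, 221, 318 and 284 TPM in short-term libraries and 592, 537 and 565 TPM in PBS libraries. Pecam1, CD31, a junction protein also found on platelets and leukocytes, had 291, 304 and 317 TPM in long-term libraries, 249.7, 351 and 297 TPM in short-term libraries and 435, 414 and 444 TPM in PBS libraries. Neither gene overlapped between PM2.5 and PBS libraries, and only Cdh5 had every long-term library above every short-term library. The long-term differences were -0.55 ± 0.13 for Cdh5 (adjusted p = 0.0243; 0.000583 to 0.111 over the alternatives) and -0.50 ± 0.13 for Pecam1 (adjusted p = 0.0267; 0.000524 to 0.118 over the alternatives). Esam, a junction adhesion molecule with the smallest long-term difference of the 10, had 174, 159 and 176 TPM in long-term libraries, 185, 247 and 225 TPM in short-term libraries and 209.5, 206 and 206 TPM in PBS libraries. Long-term libraries lay below PBS libraries, and the short-term range enclosed the PBS range (long-term minus PBS -0.29 ± 0.12, adjusted p = 0.176). Clec14a, a surface lectin of sprouting endothelium, had 114, 112 and 98.5 TPM in long-term libraries, 51.02, 90.97 and 82.03 TPM in short-term libraries and 164, 149.99 and 153 TPM in PBS libraries. Mmrn2, a matrix protein that binds Clec14a and Cd93, had 13.01, 12.7 and 21.4 TPM in long-term libraries, 8.0, 10.6 and 8.18 TPM in short-term libraries and 26.7, 22.3 and 16.5 TPM in PBS libraries. Clec14a did not overlap between any 2 groups, and in Mmrn2 long-term replicate 3 exceeded PBS replicate 3. Cldn5, the claudin of endothelial tight junctions, averaged 513 ± 61.7, 645 ± 34.7 and 677 ± 55.7 TPM in the long-term, short-term and PBS libraries (SD, n = 3 each). Emcn, a sialomucin, Robo4, a receptor that stabilises vessels, and Cd93, a surface glycoprotein shared with myeloid cells, had long-term differences of -0.48 ± 0.14, -0.51 ± 0.15 and -0.38 ± 0.29 and did not pass in the fit over all groups.

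Of the genes for peptide and lipid signalling 1 of 7 fell in the long-term group (background 1.72%), Ramp2. With the correction 4 of 7 passed as lower (background 11.6%). Ramp2 and Calcrl form the adrenomedullin receptor. Ramp2 had 934, 1008 and 998 TPM in long-term libraries, 1174, 1160.05 and 1548 TPM in short-term libraries and 1464, 1505 and 1476 TPM in PBS libraries. All long-term libraries lay below all PBS libraries, short-term replicate 3 lay above them, and Ramp2 fell by 0.60 ± 0.13 in the long-term group (adjusted p = 0.0116; 0.000472 to 0.0605 over the alternatives). Calcrl had 147, 135 and 114 TPM in long-term libraries, 26.1, 86.2 and 71.2 TPM in short-term libraries and 167, 171 and 205 TPM in PBS libraries. Its 3 groups did not overlap, and the long-term difference of -0.46 ± 0.35 missed the threshold (adjusted p = 0.551). Both parts of the receptor were thus lower on average in the long-term libraries, and in the short-term libraries the mean of Calcrl was 66.2% below its PBS mean and that of Ramp2 12.7% below. Apln, the ligand apelin made by aerocytes, had 23.6, 24.1 and 29.9 TPM in long-term libraries, 13.7, 25.97 and 23.01 TPM in short-term libraries and 41.6, 48.6 and 40.9 TPM in PBS libraries. All PM2.5 libraries lay below all PBS libraries, and the long-term difference of -0.74 ± 0.21, the largest of these 7 genes, narrowly missed the threshold (adjusted p = 0.0504). Ednrb, an endothelin receptor of aerocytes, had 26.7, 23.4 and 24.2 TPM in long-term libraries, 9.07, 19.1 and 18.7 TPM in short-term libraries and 39.9, 41.6 and 36.2 TPM in PBS libraries. Ace, angiotensin-converting enzyme, for which lung capillaries are the classic source, had 526, 609 and 594 TPM in long-term libraries, 783, 695 and 927 TPM in short-term libraries and 752, 716 and 775 TPM in PBS libraries. Ednrb was below PBS in every PM2.5 library, and Ace was below PBS in every long-term library but on both sides of the PBS range in the short-term libraries. S1pr1, the receptor through which sphingosine 1-phosphate tightens the barrier, had 155, 139.7 and 169 TPM in long-term libraries, 58.7, 183 and 137 TPM in short-term libraries and 172, 180.02 and 195 TPM in PBS libraries. Its long-term difference of -0.24 ± 0.32 was the smallest of the 7 (adjusted p = 0.79), and short-term replicate 1 was far below the other 8 libraries. Aplnr, the apelin receptor of general capillary cells, had a long-term difference of -0.36 ± 0.14, and its long-term and PBS ranges overlapped.

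Of the capillary membrane proteins 1 of 4 fell in the long-term group (background 1.72%), Plvap. With the correction all 4 passed as lower (background 11.6%). Plvap, which forms the diaphragms of caveolae and fenestrae, had 901, 1244 and 1033 TPM in long-term libraries, 1476, 1134 and 1466 TPM in short-term libraries and 1489, 1448 and 1649 TPM in PBS libraries. The long-term libraries lay below all PBS libraries, short-term replicates 1 and 3 reached the PBS range, and Plvap fell by 0.54 ± 0.15 in the long-term group (adjusted p = 0.0432; 0.00294 to 0.201 over the alternatives). Gpihbp1, which carries lipoprotein lipase across capillary cells, had 335, 355 and 351 TPM in long-term libraries, 615, 552 and 511 TPM in short-term libraries and 468, 396 and 508 TPM in PBS libraries. It was the 1 gene of the 36 whose short-term libraries all lay above the PBS libraries, while its long-term libraries all lay below them. The difference was -0.39 ± 0.12 in the long-term group (adjusted p = 0.0646) and 0.29 ± 0.12 in the short-term group (adjusted p = 0.0601), neither past the threshold in this fit. The long-term one (0.00093 to 0.241 over the alternatives) passed in 7 of 20 alternatives and the short-term one (0.0138 to 0.553) in 2 of 20. Long-term against short-term it was -0.68 ± 0.12 (adjusted p = 0.00197; 0.000488 to 0.0111 over the alternatives). Car4, carbonic anhydrase of aerocytes, had 279, 284 and 269 TPM in long-term libraries, 269, 290.4 and 318 TPM in short-term libraries and 320.2, 299 and 312 TPM in PBS libraries. Tspan7, a tetraspanin, had 416, 432 and 439.9 TPM in long-term libraries, 254, 456 and 468 TPM in short-term libraries and 624, 650.2 and 647 TPM in PBS libraries. As deposited, Car4 had the smallest long-term difference of all 36 genes at -0.16 ± 0.10 (adjusted p = 0.414), with all long-term libraries below PBS by a narrow margin. With the correction Car4 differed by -0.41, and the smallest difference of the 36 was that of Vwf at -0.21. Tspan7 had the largest long-term difference of the 4 genes at -0.57 ± 0.20 (adjusted p = 0.103).

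Of the nitric oxide and secreted vessel proteins 1 of 4 fell in the long-term group (background 1.72%), Egfl7. Egfl7 (chr2:26581083-26592682, GRCm38.p6) had 422, 422 and 477 TPM in long-term libraries, 604, 581 and 602 TPM in short-term libraries and 755, 585 and 691 TPM in PBS libraries. Long-term libraries lay below every other library, and Egfl7 fell by 0.62 ± 0.12 in the long-term group (adjusted p = 0.00642; 0.000462 to 0.0388 over the alternatives). Nos3, the endothelial nitric oxide synthase, had 10.6, 10.02 and 12.5 TPM in long-term libraries, 7.93, 8.16 and 10.1 TPM in short-term libraries and 10.4, 12.2 and 17.6 TPM in PBS libraries. Vwf, von Willebrand factor, which large vessels and platelets store, had 63.6, 71.1 and 78.1 TPM in long-term libraries, 36.6, 45.9 and 48.7 TPM in short-term libraries and 101, 85.5 and 78.8 TPM in PBS libraries. The Nos3 ranges overlapped between long-term and PBS libraries and its difference of -0.23 ± 0.20 was the smallest of the 4 (adjusted p = 0.608), while Vwf was lowest in all short-term libraries. The long-term difference of Vwf was -0.31 ± 0.15 (adjusted p = 0.248). Nostrin, which moves Nos3 within the cell, averaged 41.8 ± 2.56 TPM in the long-term libraries, 30.6 ± 10.1 TPM in the short-term libraries and 59.9 ± 5.28 TPM in the PBS libraries (SD, n = 3 each).

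Of the transcription factors 2 of 5 fell in the long-term group (background 1.72%), Sox18 and Sox17. The 5 had the lowest median of the 6 role groups, at -0.68. Sox18 (chr2:181669837-181671640, GRCm38.p6), a SOXF factor of vessel and lymphatic development, had 290.3, 326 and 328 TPM in long-term libraries, 317, 311 and 417 TPM in short-term libraries and 527, 463 and 529.7 TPM in PBS libraries. Sox17, the SOXF factor of arteries, had 27.4, 36.4 and 39.1 TPM in long-term libraries, 19.9, 26.4 and 34.95 TPM in short-term libraries and 62.4, 50.8 and 65.6 TPM in PBS libraries. Sox7, the remaining SOXF factor, had 23.8, 24.1 and 36.1 TPM in long-term libraries, 6.07, 18.4 and 15.9 TPM in short-term libraries and 60.01, 60.1 and 48.8 TPM in PBS libraries. All 3 SOXF genes were below PBS in all 6 PM2.5 libraries, and Sox7 also separated the long-term from the short-term libraries. Sox18 fell by 0.68 ± 0.13 in the long-term group (adjusted p = 0.00728; 0.000133 to 0.0417 over the alternatives), and Sox17 fell by 0.79 ± 0.21 (adjusted p = 0.0345; 0.00244 to 0.16). Sox7 had the largest difference of the 36 genes at -1.003 ± 0.33, which missed the threshold over all groups (adjusted p = 0.0853) and passed with the 2 groups alone (adjusted p = 0.00173; 0.00118 to 0.277 over the alternatives). Erg, an ETS factor that keeps endothelial identity, had 50.3, 55.5 and 52.8 TPM in long-term libraries, 19.3, 42.8 and 35.9 TPM in short-term libraries and 78.9, 68.99 and 77.3 TPM in PBS libraries. Fli1, an ETS factor shared with leukocytes and megakaryocytes, had 15.8, 11.6 and 14.5 TPM in long-term libraries, 4.02, 10.3 and 6.52 TPM in short-term libraries and 17.1, 17.8 and 14.1 TPM in PBS libraries. Erg was below PBS in all PM2.5 libraries (long-term minus PBS -0.50 ± 0.23, adjusted p = 0.25). Fli1 overlapped between long-term and PBS libraries, and its long-term difference of -0.22 ± 0.26 was the smallest of the 5 (adjusted p = 0.759).

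**Figure D3:**
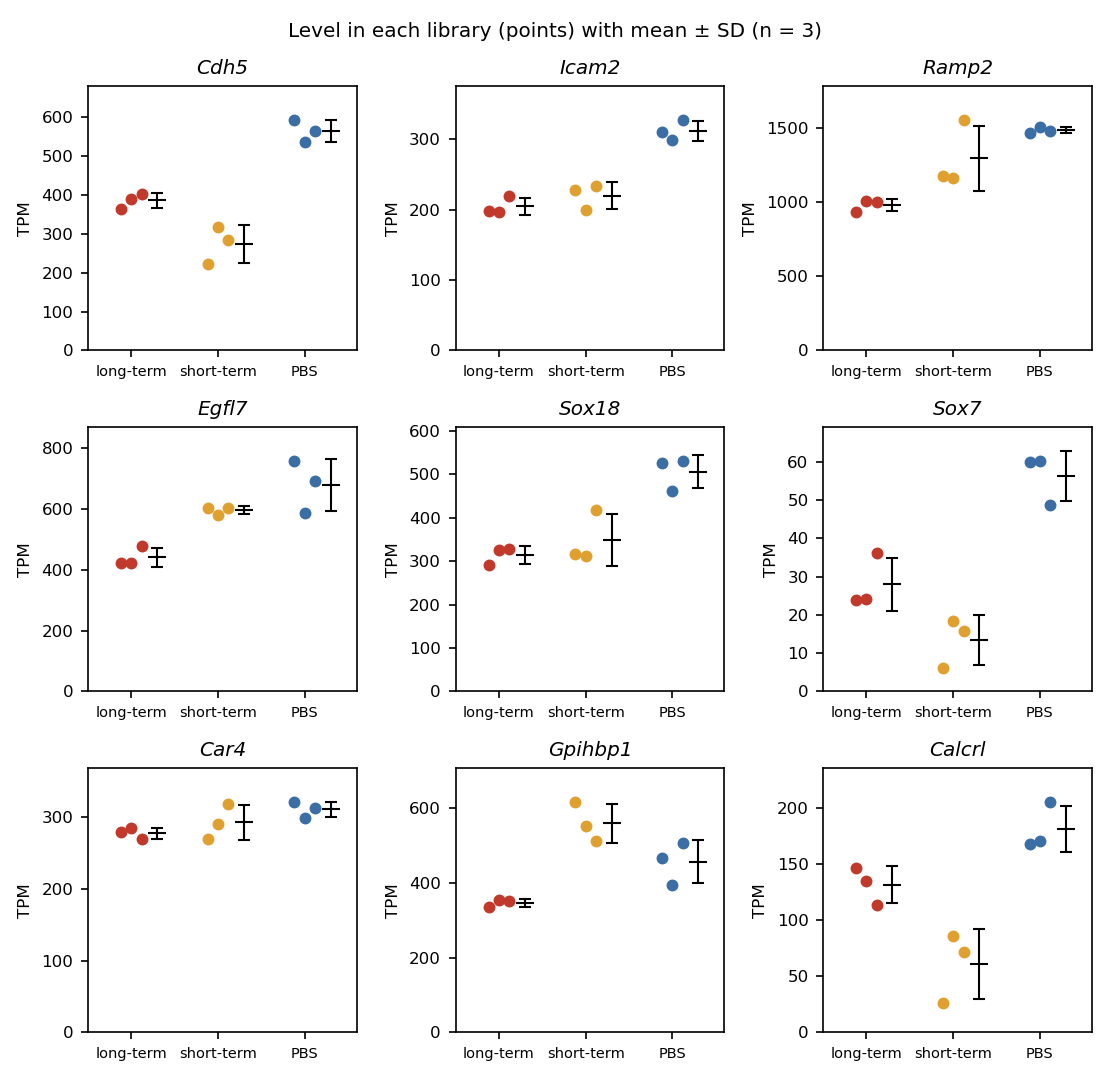
TPM of selected endothelial genes in each library, with long-term, short-term and PBS libraries from left to right, points for libraries and bars for group means with SD (n = 3 each). Long-term points lie below PBS points in each panel, while the short-term points differ between genes, below PBS for Sox7 and above PBS for Gpihbp1.

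The comparison of short-term PM2.5 with PBS asks what followed 1 instillation, against the same PBS libraries as above. As deposited, 33 of the 36 genes had a lower mean in the short-term libraries, and the differences varied more from gene to gene, with an SD over the 36 genes of 0.558 in the short-term and 0.167 in the long-term comparison. The change of mean TPM ran from -76.1% (Sox7) to 22.4% (Gpihbp1), with a median of -41.2%. The median difference was -0.77, against -0.34 over all tested genes, and 71.5% of all tested genes had a lower mean. In the fit over all groups 27 of the 36 genes fell and 0 rose, where 40.3% of all tested genes fell and 11.7% rose. The largest falls were those of Sox7 at -2.11 ± 0.33, Calcrl at -1.71 ± 0.35 and Ptprb at -1.62 ± 0.29 (adjusted p = 0.000975, 0.00321 and 0.00182). The junction cadherin Cdh5 differed by -1.05 ± 0.13 and Pecam1 by -0.54 ± 0.13 (adjusted p = 0.000364 and 0.00611). The 9 genes that did not pass were Ace, Car4, Cldn5, Egfl7, Esam, Gpihbp1, Plvap, Ramp2 and S1pr1. With the short-term and PBS libraries fitted alone 26 fell (background 30.7%) and 0 rose (background 9.17%). For 27 genes every short-term library lay below every PBS library (background 45.8%), and for 1, Gpihbp1, above (background 14.5%). Relative to the median of all genes the endothelial median was -0.42 as deposited, -0.37 with median-ratio scaling, -0.71 with quantile normalization and -0.35 with the correction. Of the 27 calls, those of Icam2, Sox18, Pecam1, Aplnr, Nos3 and Robo4 missed the threshold with median-ratio scaling. Cd93 missed it without PBS replicate 1 or 2 (adjusted p up to 0.0747), Flt4 without PBS replicate 1 (0.0518), Robo4 without any 1 PBS library (up to 0.0841) and Nos3 without any 1 library other than PBS replicate 1 and short-term replicate 3 (up to 0.163). Gpihbp1 passed as higher without PBS replicate 3 (adjusted p = 0.0479), Ramp2 as lower without short-term replicate 3 (0.0287) and S1pr1 as lower without short-term replicate 2 (0.00654).

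The short-term differences followed transcript length, the length of the longest annotated transcript. Across the 36 genes, which share the 3 libraries of each group and so are not independent, the short-term difference had r = -0.57 and rho = -0.49 with the log of length, and the long-term difference had r = 0.05 and rho = 0.16. Over all tested genes rho was -0.53 for the short-term and -0.18 for the long-term difference. Of all tested genes, whatever their length, 40.3% fell in the short-term group. The share among genes of like length was not worked out. Over all tested genes the median short-term difference was 0.37 in the shortest of 20 bins of length and -0.88 in the longest. Of the 12 endothelial genes with the longest transcripts (4571 to 11911 bases) 11 fell in the short-term group, with a median change of mean TPM of -51.3% there and of -28.2% in the long-term group. Of the 12 with the shortest transcripts (1256 to 3149 bases) 4 fell, with medians of -12.4% in the short-term and -30.4% in the long-term group. The source of the length trend was not tested.

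**Figure D4:**
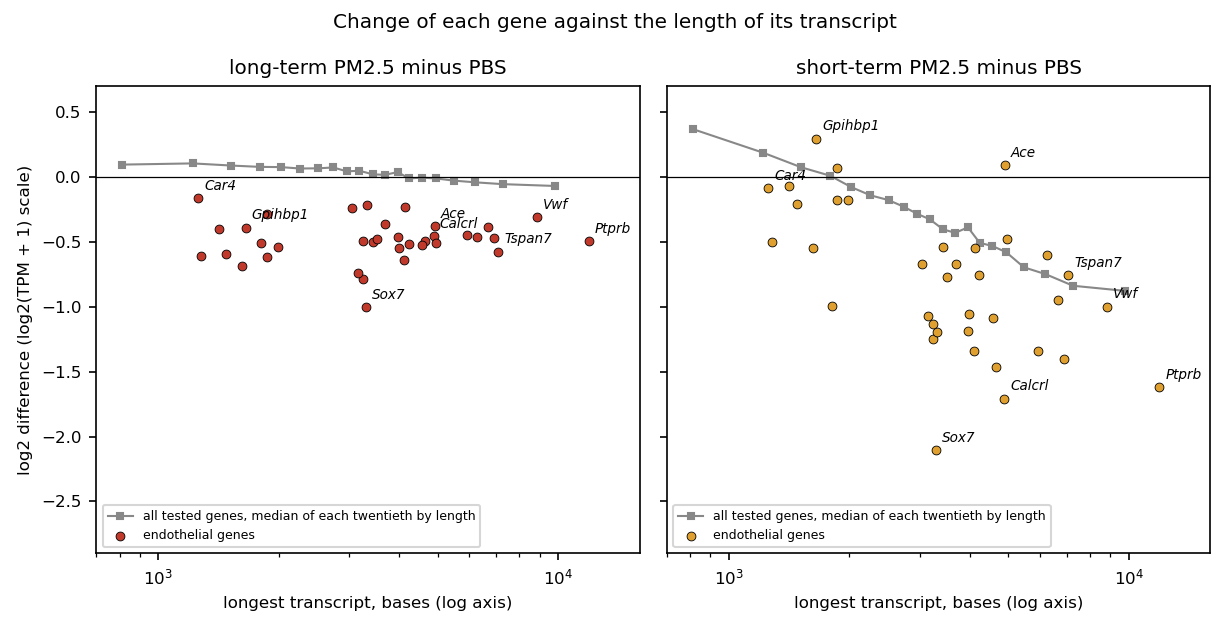
Difference from PBS of each of the 36 endothelial genes in log2(TPM + 1) against the length of its longest transcript (log axis), for long-term PM2.5 on the left and short-term PM2.5 on the right. Grey squares are medians of all tested genes in 20 bins of length. The long-term points lie level (r = 0.05), and the short-term points fall with length (r = -0.57).

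After the correction 21 of the 36 genes fell in the short-term group and 1 rose, where 26.4% of all tested genes fell and 24.0% rose, and 19 genes fell in both analyses. The largest corrected falls were those of Sox7, at -1.83 ± 0.26 (adjusted p = 0.000313), and of Calcrl, at -1.04 ± 0.18 (adjusted p = 0.000977). Kdr, Flt1, Tek and Ptprb also fell after the correction, by 0.64 ± 0.10, 0.66 ± 0.12, 0.88 ± 0.15 and 0.67 ± 0.14 (adjusted p = 0.000742, 0.00169, 0.00106 and 0.00363). The gene that rose was Ace, at 0.60 ± 0.13 corrected (adjusted p = 0.00416) and 0.09 ± 0.12 as deposited (adjusted p = 0.55; 0.00416 to 0.907 over the alternatives), with a quantile-normalized difference of -0.15. Flt4, Robo4 and Tspan7 were lower as deposited and had corrected differences of 0.06 ± 0.09, 0.03 ± 0.12 and 0.08 ± 0.12, past no threshold. Pecam1, Vwf, Aplnr, Cd93 and Nos3 also passed as lower as deposited but not with the correction. Car4 and Ramp2 passed as lower with the correction though not as deposited. The markers of the 2 capillary cell kinds differed within each kind: as deposited the short-term differences were -1.07 ± 0.21 for Apln, -1.34 ± 0.24 for Ednrb and -0.09 ± 0.10 for Car4 among aerocyte markers, and -0.67 ± 0.14 for Aplnr, 0.29 ± 0.12 for Gpihbp1 and -0.18 ± 0.15 for Plvap among general capillary markers. The markers with smaller differences, Car4 (1256 bases), Gpihbp1 (1652) and Plvap (1987), had shorter transcripts than Apln (3149), Aplnr (3699) and Ednrb (4107). The part of the length trend in this contrast was not tested. With the correction Car4 differed by -0.32 and passed as lower, as Apln and Ednrb did. Gpihbp1 differed by 0.15 with the correction, and Gpihbp1, Plvap and Aplnr did not pass. Apln and Ednrb passed as lower in all 20 alternatives and Aplnr in 16.

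The comparison of long-term with short-term PM2.5 asks how the 2 exposures differ from each other, with no PBS library on either side. Gpihbp1, Ace, Egfl7, Ramp2 and Esam were lower in the long-term libraries and Sox7, Calcrl and Fli1 were higher, both as deposited and with the correction. As deposited 6 of the 36 genes were lower in the long-term libraries (background 7.08%) and 13 were higher (background 43.4%), a split of 12 and 7 with median-ratio scaling (background 19.7% and 26.9%) and of 2 and 10 with quantile normalization (background 21.4% and 21.3%). With the 2 PM2.5 groups fitted alone 3 were lower (background 5.22%) and 8 higher (background 30.8%). Every long-term library lay below every short-term library for 6 genes (background 9.94%) and above for 16 (background 50.2%). The 6 lower genes in the fit over all groups were Gpihbp1, Ace, Egfl7, Ramp2, Esam and Cldn5, and the 13 higher genes were Calcrl, Cdh5, Clec14a, Ednrb, Erg, Fli1, Flt1, Kdr, Mmrn2, Ptprb, Sox7, Tek and Vwf. With the correction 10 were lower (background 22.6%) and 3 were higher (background 19.6%), and the median over the 36 genes was -0.08, against 0.32 as deposited. Relative to the median of all genes it was -0.09 as deposited, -0.12 with median-ratio scaling, 0.18 with quantile normalization and -0.05 with the correction. Sox7, Calcrl and Fli1 differed by 0.70 ± 0.26, 0.54 ± 0.18 and 0.47 ± 0.13 corrected (adjusted p = 0.048, 0.0329 and 0.0128). Gpihbp1, Ace, Egfl7, Ramp2 and Esam differed by -0.75 ± 0.10, -0.97 ± 0.13, -0.50 ± 0.09, -0.37 ± 0.13 and -0.47 ± 0.10 corrected (adjusted p = 0.000488, 0.000446, 0.00238, 0.0421 and 0.00364). Without long-term replicate 1 the counts as deposited were 2 lower and 8 higher (background 5.03% and 28.0%), and without short-term replicate 3 the lower count was 3 (background 5.79%). Ace, Calcrl and Tek missed the threshold without long-term replicate 1 (adjusted p = 0.053, 0.0511 and 0.0528), Sox7 without long-term replicate 3 (0.073), Clec14a without long-term replicate 1 or 2 (up to 0.0869) and Mmrn2 without long-term or short-term replicate 3 (up to 0.102). Ednrb and Erg missed it without any 1 long-term library (up to 0.0949 and 0.066), Ramp2 also without short-term replicate 3 (up to 0.0906) and Esam also without short-term replicate 2 or 3 (up to 0.104). Cldn5 missed it without any 1 of 6 libraries, namely PBS replicates 1 and 3, short-term replicates 1 and 3 and long-term replicates 1 and 2 (up to 0.14).

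Genes around the 36 in the same pathways were taken from fixed lists. In the fit over all groups 1.72% of all tested genes were lower and 9.51% higher in the long-term group against PBS. The share that was lower was 9.87% with the 2 groups alone and 11.6% with the correction. Of 8 VEGF and angiopoietin ligands 0 passed in the long-term group against PBS in the fit over all groups, and 3 passed as lower with the correction. Vegfa, the ligand of Kdr and Flt1, had 348, 412 and 344 TPM in long-term libraries, 181, 267 and 271 TPM in short-term libraries and 595, 502 and 520.01 TPM in PBS libraries. All PM2.5 libraries lay below all PBS libraries, with a long-term difference of -0.55 (adjusted p = 0.0547). Angpt1 and Angpt2, the activating and the context-dependent ligand of Tek, differed by -0.32 (adjusted p = 0.695) and -0.42 (adjusted p = 0.238), and Adm, the ligand of the Ramp2 and Calcrl receptor, by -0.20 (adjusted p = 0.688). Edn1, the endothelin ligand of Ednrb, differed by -0.52 (adjusted p = 0.379). Of 13 tested partners of the peptide and lipid receptors (Adm2 and Apela were too low to test) 2 fell, Ece1, which processes endothelin, at -0.40 (adjusted p = 0.0335), and Spns2, the exporter of sphingosine 1-phosphate, at -0.55 (adjusted p = 0.0214). Of 12 Notch and arterial genes 2 fell, the receptor Notch4 at -0.53 (adjusted p = 0.0167) and the connexin gene Gja4 at -0.50 (adjusted p = 0.0198), and 8 of 12 passed as lower with the correction. Of 28 other endothelial genes 5 fell and 0 rose, with 26 of 28 lower past the threshold with the 2 groups alone and 21 with the correction. They included Rasip1, a regulator of vessel lumens, at -0.56 (adjusted p = 0.00498), and Acvrl1 and Eng, the receptor and co-receptor of BMP9, at -0.54 (adjusted p = 0.0143) and -0.53 (adjusted p = 0.0174). Venous and activated endothelium genes moved both ways, with 1 higher and 1 lower of 7 tested. The higher gene was Lrg1, at 1.97 (adjusted p = 0.000206), and the lower one was Ephb4, the venous ephrin receptor, at -0.53 (adjusted p = 0.0279). The chemokine receptor Ackr1 met the filter of 1 TPM in 3 libraries only through the short-term group and is left out of this count. Sele was too low to test. Of 5 tested lymphatic genes (Prox1 and Reln were too low to test) 0 passed in the fit over all groups, and 1 passed as lower with the correction.

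Markers of other lung cells moved in the same libraries, and their part in the endothelial results was not tested. Against PBS, 1.72% of all tested genes were lower and 9.51% higher in the long-term group in the fit over all groups. These shares were 9.87% and 17.9% with the 2 groups alone and 11.6% and 12.4% with the correction. For the short-term group they were 40.3% and 11.7% as deposited and 26.4% and 24.0% with the correction. In the long-term group against PBS 8 of 10 macrophage genes rose, with summed levels of 876 to 1268 TPM in the long-term libraries, 575 to 640 TPM in the short-term libraries and 318 to 352 TPM in the PBS libraries. Of 6 goblet cell genes Muc5ac, Clca1 and Gp2 met the filter only with the long-term libraries, and the other 3 all rose, with sums over all 6 of 214 to 277 TPM, 16 to 27.9 TPM and 7.03 to 12.8 TPM in the same order. Ciliated cell genes rose in 7 of 8 cases, with sums of 1700 to 2168 TPM in the long-term, 809 to 1310 TPM in the short-term and 1501 to 1849 TPM in the PBS libraries. Genes shared by all leukocytes rose in 2 of 5 cases, with sums of 768 to 1016 TPM in the long-term, 773 to 1105 TPM in the short-term and 514 to 696 TPM in the PBS libraries. Neutrophil genes passed in 0 of 7 cases in the long-term group and rose in 7 of 7 in the short-term group, with sums of 338 to 557 TPM, 958 to 1477 TPM and 340 to 543 TPM in long-term, short-term and PBS libraries. Alveolar type 1 genes, from the cells that face the capillaries, fell in 1 of 8 cases in the long-term group in the fit over all groups and in 6 of 8 both with the 2 groups alone and with the correction, the fits in which 28 endothelial genes were lower. In the short-term group 6 of 8 fell and 1 rose as deposited, with a median of -0.57, and 4 of 8 fell with the correction. Their sums were 5927 to 6495 TPM in long-term, 7189.96 to 9743 TPM in short-term and 7456 to 8355 TPM in PBS libraries. Alveolar type 2 genes passed in 0 of 8 cases (5 higher with the 2 groups alone, 1 with the correction), with sums of 47149 to 50092 TPM in long-term, 30540.1 to 36604 TPM in short-term and 44906 to 46062 TPM in PBS libraries. Smooth muscle and pericyte genes fell in 1 of 10 cases (4 with the 2 groups alone, 3 with the correction), with sums of 628 to 721 TPM in long-term, 825 to 978 TPM in short-term and 764 to 925 TPM in PBS libraries. Fibroblast genes fell in 2 of 8 cases and rose in 1 (4 and 2 with the 2 groups alone, 2 and 2 with the correction), with sums of 3762 to 4060.4 TPM in long-term, 1960.3 to 2659 TPM in short-term and 5006 to 5829 TPM in PBS libraries. Platelet and megakaryocyte genes passed in 0 of 7 tested cases in the long-term group, and in the short-term group 1 rose, 1 fell and 5 did not pass (median -0.19, or -0.31 corrected), with sums of 57.2 to 95.3 TPM in the long-term, 116 to 122 TPM in the short-term and 58.6 to 84.9 TPM in the PBS libraries. Red cell genes fell in 4 of 6 tested cases, with sums of 17928 to 30039.9 TPM in long-term, 35089 to 67320.0 TPM in short-term and 50039 to 75476 TPM in PBS libraries. Cardiac muscle genes fell in 2 of 6 cases (4 with the 2 groups alone, 3 with the correction), with sums of 443 to 616 TPM in long-term, 486 to 766 TPM in short-term and 713 to 1059.8 TPM in PBS libraries. No marker of these lists was at 0 in all 9 libraries.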

How the data were processed

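The authors deposited 1 table of TPM values for 9 whole-lung libraries, and no other file was used. Per the labels' protocols, mRNA was purified with oligo(dT) beads, and libraries underwent DSN processing (duplex-specific nuclease, which lowers abundant transcripts) before sequencing on the DNBSEQ platform. DSN limits the comparison of abundant genes. The submitters' processing notes name RSEM, HISAT2, DESeq2 and Bowtie2 without roles or versions, and name the build GRCm38.p6 for 8 of the 9 samples. Column sums differed by at most 1.09 TPM, so the read depth is unknown and intervals for counting error were not made.

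Values were taken as log2(TPM + 1). The 13991 of 18875 genes that reached 1 TPM in 3 or more libraries were fitted over all 9 libraries (limma 3.58.1, R 4.3.3), with 6 residual degrees of freedom and eBayes with an intensity trend. The 3 pairwise tests were two-sided, adjusted by Benjamini-Hochberg over all tested genes, with a threshold of 0.05. With 3 libraries a group, an exact permutation test cannot go below p = 0.1. The 2 comparisons with PBS share the PBS libraries. The correction subtracts from each library natural splines (5 degrees of freedom each) in transcript length and GC content, for the 13792 tested genes with a length in GENCODE vM21. Alternatives were a pseudocount of 0.1, no filter, a mean of at least 5 TPM, median-ratio scaling, quantile normalization, only the 2 groups compared, a block for the replicate number, eBayes without the trend, and each library left out. The 2 groups alone with the correction were added after seeing the data. The fits were tested on simulated data. Members, lists and tests were chosen with earlier results of these data known. Values in every library are given for members past the threshold in long-term PM2.5 against PBS, for members higher past the threshold in any comparison and for the extremes of each role group, and pathway genes are named where they passed in that comparison (up to 4 for each list), with 5 ligands always named. Annotation and figures were made in Python 3.11.15.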

Additional observations from a re-analysis of the deposited data

How the results depend on the processing

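All 36 endothelial genes had a lower mean in long-term PM2.5 than in PBS under every alternative listed in the processing account, and their median difference of -0.49 stayed between -0.54 (all fits with the length and GC correction) and -0.47, with -0.53 under median-ratio scaling and -0.52 to -0.47 when 1 library was left out. The count of lower genes, 9 over all groups, was 19 with median-ratio scaling, 22 with quantile normalization, 28 with the 2 groups alone or the correction, 27 with the replicate block and the correction, 32 with the 2 groups alone and the correction, and 3 to 28 without 1 library. The share of all tested genes called lower was 1.72% over all groups and in these settings, in the same order, 3.66%, 8.27%, 9.87% or 11.6%, 9.06%, 22.5%, and 0.350% to 7.18%, so the background moved with the count. For short-term PM2.5 against PBS the median of -0.77 was -0.42 with median-ratio scaling, -0.38 with the correction and -0.95 to -0.62 without 1 library. The count of higher genes there, 0 (0 also at 0.05 with the 2 groups alone), was 2 with median-ratio scaling (background 24.5%, against 11.7%), 1 in the fits with the correction (20.8% to 24.0%) and 0 to 1 without 1 library (8.68% to 14.0%). Between long-term and short-term PM2.5 the median of 0.32 turned to -0.041 with median-ratio scaling and -0.076 with the correction (0.16 to 0.42 without 1 library). Its 6 lower genes became 12, 2, 3 and 10 with median-ratio scaling, quantile normalization, the 2 groups alone and the correction (background 19.7%, 21.4%, 5.22% and 22.6%, against 7.08%), and 2 to 6 without 1 library (4.40% to 7.94%). Its 13 higher genes (background 43.4%) became 7 with median-ratio scaling (26.9%), 8 with the 2 groups alone (30.8%), 3 with the correction, also with the block (19.6% and 18.2%), 1 with the 2 groups alone and the correction (16.3%), and 8 to 18 without 1 library (28.0% to 57.6%). Past the threshold and then turned were Flt4, Robo4 and Tspan7 in short-term PM2.5 against PBS (0.060, 0.032 and 0.081 corrected), and Clec14a and Vwf between long-term and short-term PM2.5 (-0.083 and -0.0072 corrected). Flt4, Pecam1 and Tspan7 turned to -0.45, -0.41 and -0.66 there, and Pecam1 to -0.35 with median-ratio scaling. The cause was not tested, except that fits without a library or group hold fewer samples.

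Replicate numbers are shared between groups. The deviations of same-numbered samples correlated at -0.287 to 0.262. Each sample was compared with the 3 samples of another group, of which 1 carries its own number. In 4 of 18 such comparisons the best correlation was with the own number. So few samples a group cannot exclude that the numbers pair them. With the replicate block 7 genes were lower in the long-term group against PBS (background 0.943%), 27 in the short-term group (35.4%), and 4 were lower and 12 higher in long-term than in short-term libraries (5.91% and 37.8%). The TPM table gives no depth, so nothing is said of how low a difference could be seen.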

Other observations

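Genes of the pathways around the 36 endothelial genes moved in both directions in the short-term libraries. They are named here after their values were seen, and each but Ackr1 passed the threshold against PBS in the fit over all groups (limma) both as deposited and with the correction for length and GC content. Of 8 VEGF and angiopoietin ligands 6 fell and 1 rose as deposited (background 40.3% and 11.7%). Pgf, placental growth factor, a ligand of Flt1, was the 1 that rose, and had 5.74, 5.90 and 4.72 TPM in long-term libraries, 23.6, 16.2 and 19.97 TPM in short-term libraries and 4.62, 4.09 and 3.26 TPM in PBS libraries. All short-term libraries lay above all others, and the short-term difference from PBS was 2.06 (adjusted p = 5.08e-05), against 0.38 (adjusted p = 0.261) in the long-term group. Vegfc, the ligand of Flt4, had 8.52, 8.89 and 9.67 TPM in long-term libraries, 1.76, 4.26 and 3.25 TPM in short-term libraries and 15.04, 14.3 and 10.2 TPM in PBS libraries, a short-term difference of -1.83 (adjusted p = 0.0004). Edn1, the endothelin ligand of Ednrb, had a short-term difference of -1.61 (adjusted p = 0.00212) and a corrected one of -1.48.

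Of venous and activated endothelium genes 3 of 7 tested rose (background 11.7%) and 3 fell (background 40.3%) as deposited in the short-term group. Ackr1 is left out of these counts, since it met the filter of 1 TPM in 3 libraries only through the short-term libraries. Selp, P-selectin, which captures leukocytes and is also stored by platelets, had 4.28, 2.98 and 2.14 TPM in long-term libraries, 5.23, 12.2 and 5.39 TPM in short-term libraries and 1.88, 1.87 and 2.42 TPM in PBS libraries. Its difference from PBS was 1.41 (adjusted p = 0.0035). Ackr1, a chemokine receptor of venules, had 0.95, 0.82 and 0.7 TPM in long-term libraries, 2.37, 2.56 and 2.09 TPM in short-term libraries and 0.21, 0.22 and 0.02 TPM in PBS libraries. These levels of Ackr1 are given as a description, with no test. Icam1, an adhesion molecule of activated endothelium and of many other lung cells, differed by 0.45 (adjusted p = 0.00676), and Lrg1, which venous endothelium shares with neutrophils and epithelium, by 2.93 (adjusted p = 1.29e-05). Neutrophil genes were higher in the same short-term libraries and the summed level of platelet genes was higher, though most platelet genes did not pass, as given above, and their part in these values was not tested.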
